A study of Bos taurus with 12 samples.

Results

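The phase effect on gene expression in bovine oviductal epithelial cells was set between the isthmus and the ampulla on all 12 arrays of the series. For each of 26773 probesets, the difference between the follicular phase (FP) and the luteal phase (LP) within the ampulla was subtracted from the same difference within the isthmus. The result is called the interaction below. It equals the isthmus minus ampulla difference in FP less that in LP, so it is negative where FP minus LP was lower in the isthmus than in the ampulla. The members described are the 18010 genes measured by a probeset with 1 gene symbol.

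The cells came from 6 Angus heifers, and each gave 1 isthmus and 1 ampulla sample from the oviduct on the side of the preovulatory follicle or the corpus luteum. The follicular phase was an induced one, since the 3 FP heifers had an injection of 25 mg prostaglandin F2α on day 6 and slaughter followed after 36 h. The 3 LP heifers were not given prostaglandin F2α and were killed on day 11 or 12. Days are counted from ovulation in the sample labels and from estrus in the methods. The 4 groups, FP isthmus, LP isthmus, FP ampulla and LP ampulla, hold 3 arrays each. Phase, the prostaglandin treatment and the day of the cycle went together in these heifers and cannot be told apart. Cells were squeezed out of short lengths of each segment, so fewer cells of a type and less RNA per cell cannot be told apart either.

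The oviduct carries gametes and embryos between the ovary and the uterus. Its ampulla is wide, deeply folded and rich in ciliated cells, and it is where fertilization takes place. The isthmus is narrow and muscular, and in cattle it holds sperm bound to its epithelium until ovulation. Estradiol is high around estrus and progesterone is high in mid-cycle, and both act on the epithelium of each segment through nuclear receptors. Sterol synthesis, which recurs below, is switched on when sterols in the endoplasmic reticulum are low and the transcription factor SREBP is released to the nucleus, while INSIG proteins hold it back.

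The 12 arrays had medians of 7.33 to 7.4 on the log2 scale of the deposited values, and lower quartiles of 5.68 to 5.82. The 14 measured epithelial markers averaged 10.09 to 10.28 on FP isthmus arrays, 10.10 to 10.30 on LP isthmus arrays, 10.01 to 10.02 on FP ampulla arrays and 9.96 to 10.04 on LP ampulla arrays. The 19 T and NK cell markers averaged 6.12 to 6.51 and 6.78 to 7.61 on FP and LP isthmus arrays, and 6.09 to 6.39 and 6.98 to 8.26 on FP and LP ampulla arrays. The 15 fibroblast markers averaged 7.36 to 8.15 and 6.84 to 8.04 on FP and LP isthmus arrays, and 6.46 to 6.80 and 6.71 to 7.01 on FP and LP ampulla arrays. T and NK cell markers were thus lower on every FP array than on every LP array of the same segment, and fibroblast markers were higher in the isthmus than in the ampulla of all 6 heifers. Their part in the results below was not tested.

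The 2 segments lay closer together in FP than in LP. The distance between the segments of a heifer was taken as the root mean square of its isthmus minus ampulla differences over all probesets with 1 symbol. It was 0.471, 0.527 and 0.450 log2 units in the FP heifers, against 0.548, 0.630 and 0.563 in the LP heifers. Each FP heifer was below each LP heifer. The means were 0.483 ± 0.040 in FP and 0.580 ± 0.044 in LP (SD, n = 3 each), a difference of -0.097 (two-sided exact permutation test, p = 0.1, the smallest that 3 against 3 heifers allow). Over all pairs of an isthmus and an ampulla array of a phase, which takes no account of the heifer, the distance averaged 0.472 in FP and 0.601 in LP, a comparison added after the data were seen. These array pairs overlapped, with 0.378 to 0.564 in FP and 0.520 to 0.688 in LP. Arrays of the same group also lay closer together in FP, with means of 0.304 in FP isthmus and 0.379 in LP isthmus, and of 0.305 in FP ampulla and 0.338 in LP ampulla.

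**Figure D1:**
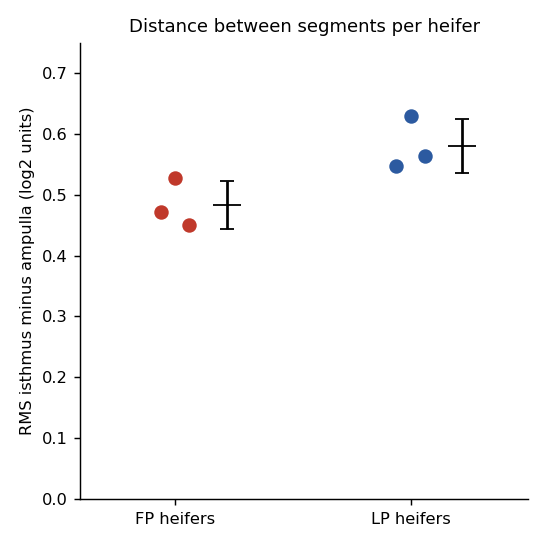
Root mean square isthmus minus ampulla difference (log2 units, y axis) of each of the 3 FP and 3 LP heifers (points), with the mean and SD of each phase (bar and whiskers). The FP heifers lie between 0.450 and 0.527, all below the LP heifers, which lie between 0.548 and 0.630.

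A measure that depends less on the spread of single arrays gave the same order. The product of the isthmus minus ampulla differences of a pair of heifers, averaged over genes, is large only where both heifers show the same differences. It was 0.101 to 0.150 for the 3 pairs of FP heifers and 0.216 to 0.279 for the 3 pairs of LP heifers. The correlation across the 18010 genes, which are not independent, was 0.48 to 0.61 between FP heifers and 0.70 to 0.79 between LP heifers. The FP and LP profiles of segment differences, which share no arrays, had a correlation of 0.74 across genes, and their root mean squares were 0.404 in FP and 0.526 in LP. Most genes thus kept the sign of their segment difference, which was the same in both phases for 12379 genes (68.7%), while its size was smaller in FP for 10519 genes (58.4%).

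Counts of genes gave the same order. A segment difference was called at an adjusted p under 0.05 (limma, Benjamini-Hochberg over all probesets) and at least 1.5-fold. It was called for 518 genes in FP, 2.88% of the 18010, and for 1563 in LP, 8.68%. In FP 341 were higher in the isthmus (1.89%) and 177 in the ampulla (0.983%), and in LP 858 were higher in the isthmus (4.76%) and 705 in the ampulla (3.91%). Of these, 382 were called in both phases, 73.7% of the FP calls and 24.4% of the LP calls, and 0 of them changed sign. Over all probesets the count was 629 in FP (2.35%) and 1871 in LP (6.99%), and it was lower in FP under each alternative run. It stood at 113 in FP without FP heifer 2 and at 1067 in LP without LP heifer 2.

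Of the genes with a segment difference in LP, more were called for the phase in the isthmus than in the ampulla. The 858 genes that were higher in the isthmus in LP had a median segment difference of 0.56 in FP and 1.06 in LP. Within the isthmus 368 of them were lower and 16 higher in FP versus LP, and within the ampulla 73 were lower and 61 higher. Their median phase effect was -0.59 in the isthmus and -0.06 in the ampulla. The 705 genes that were higher in the ampulla in LP had a median segment difference of -0.46 in FP and -0.99 in LP, and again more of them were called in the isthmus (221 higher and 10 lower in FP) than in the ampulla (59 higher and 77 lower). These genes were chosen on the LP arrays, so smaller differences in FP and the direction of their phase effects follow in part from that choice, and these counts are given as a description. Genes chosen on the FP arrays had median absolute differences of 1.15 in FP and 1.24 in LP.

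The phase effect itself was of like size in both segments and mostly ran the same way. It had a root mean square of 0.455 over genes in the isthmus and 0.433 in the ampulla. A phase effect (adjusted p under 0.05 and at least 1.5-fold) was called for 1783 genes in the isthmus (9.9%) and 1646 in the ampulla (9.14%). In FP 957 genes were higher (5.31%) and 826 lower (4.59%) in the isthmus, and 990 were higher (5.5%) and 656 lower (3.64%) in the ampulla. Both segments shared 864 of these, of which 858 changed in the same direction and 6 in opposite directions. A further 919 genes were called in the isthmus alone and 782 in the ampulla alone. The interaction was called for only 16 of these 919 and 9 of these 782 genes, so for the rest a difference between segments was not called.

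The interaction, which tests that difference directly, was called for 41 probesets (0.153%) at an adjusted p under 0.05, of which 37 were negative (0.138%) and 4 positive (0.0149%). They held 31 genes with 1 symbol (0.172% of 18010), 7 probesets with no symbol and 3 with several. Of the 31 genes, 27 had a negative (0.15%) and 4 a positive (0.0222%) interaction. At an unadjusted p under 0.05 the interaction passed for 1930 genes (10.7%), with 1088 negative (6.04%) and 842 positive (4.68%). The isthmus minus ampulla differences of the 3 FP heifers did not overlap those of the 3 LP heifers for any of the 31 genes, which is also true of 18.7% of all genes. In absolute size, the segment difference was smaller in FP for 29 of the 31 genes and larger for CLEC3A and PPP1R1A. Among the 1930 genes it was smaller in FP for 1443 and larger for 487. Over all 18010 genes it was smaller in FP for 10519 (58.4%).

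**Figure D2:**
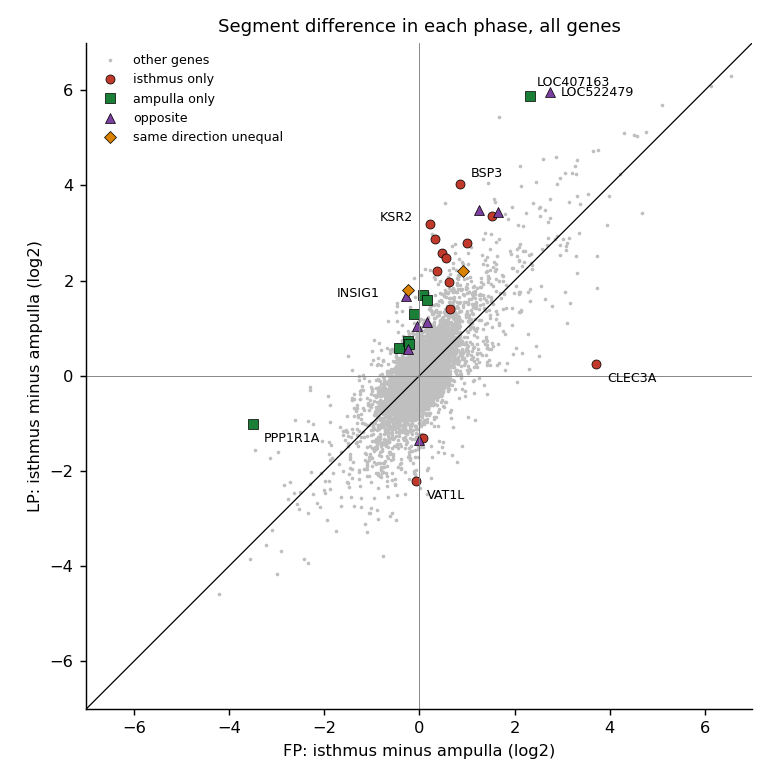
Isthmus minus ampulla difference (log2) in FP (x axis) and in LP (y axis) for 18010 genes (grey), with the 31 genes called for the interaction in colour by the class of their phase effects. The diagonal marks equal differences. Most coloured genes lie above 0 on the y axis and near 0 on the x axis, whereas CLEC3A and PPP1R1A lie farther from 0 on the x axis than on the y axis.

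The 31 genes were sorted by their phase effects. Genes whose effects had opposite signs in the 2 segments, each at an unadjusted p under 0.05, were set apart first. A remaining gene was placed under the isthmus only, or the ampulla only, if its phase effect was called there and in the other segment was under 1.5-fold or had an unadjusted p of 0.05 or more. By this rule 13 genes were placed under the isthmus only, with 10 lower and 3 higher in FP, and 8 under the ampulla only, all higher in FP. The genes with opposite signs numbered 8, and 2 changed the same way by unequal amounts. No gene had a called segment difference in both phases with opposite signs. The fitted difference did change sign for INSIG1, RAB33A, FADS2, CYB5B, LPCAT3, EMID1, ACSL3, SLC25A23 and CRYAB. For LPCAT3 it was -0.43 in FP (adjusted p = 0.018) and 0.58 in LP (adjusted p = 0.00114), both under 1.5-fold, and for the other genes the FP difference had an adjusted p over 0.05. The fold of the interaction ran from 1.70 for ARSA to 11.7 for LOC407163. With heifer as a block, which leaves 4 residual degrees of freedom in place of 8, the call held for KSR2, CYLC1, LOC522479, RAB33A, IHH, INSIG1, FDFT1, FADS2 and CLEC3A and was lost for the other 22.

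The largest group was high in the LP isthmus and lower in the 3 other groups. KSR2 encodes a scaffold of the Ras and MAP kinase cascade. It measured 6.36, 6.44 and 6.65 on FP isthmus arrays and 9.73, 10.33 and 9.41 on LP isthmus arrays, against 6.04, 6.18 and 6.55 on FP ampulla arrays and 6.73, 7.0 and 6.21 on LP ampulla arrays. The LP isthmus stood apart and the other groups overlapped. Its phase effect was -3.34 in the isthmus (adjusted p = 6.51e-05) and -0.39 in the ampulla (0.346), and its interaction was -2.95 (SE 0.35, adjusted p = 0.0154, and 0.00286 with the heifer block).

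BSP3 belongs to the binder of sperm family, whose members are known from seminal plasma. It measured 3.86, 3.86 and 4.54 in FP isthmus and 6.70, 6.92 and 8.26 in LP isthmus, against 3.37, 3.33 and 2.99 in FP ampulla and 3.55, 3.29 and 2.99 in LP ampulla. Only the LP isthmus was above the lower quartile of the arrays, so the size of the difference is uncertain. The interaction was -3.16 (SE 0.50, adjusted p = 0.0483, and 0.19 with the heifer block).

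NDP encodes norrin, a secreted ligand of the frizzled receptor FZD4. It measured 6.12, 6.85 and 6.50 in FP isthmus and 8.63, 9.22 and 8.62 in LP isthmus, against 6.08, 6.05 and 5.92 in FP ampulla and 6.32, 6.24 and 6.18 in LP ampulla. Its isthmus arrays of the 2 phases did not overlap, and no ampulla array was above 6.32. The interaction was -2.11 (SE 0.27, adjusted p = 0.021, and 0.0771 with the block).

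CYLC1 encodes cylicin 1, a cytoskeletal protein known from the head of mammalian sperm. It measured 6.29, 5.88 and 6.52 in FP isthmus and 8.18, 8.32 and 8.44 in LP isthmus, against 4.76, 4.61 and 4.73 in FP ampulla and 4.77, 4.94 and 5.14 in LP ampulla. The isthmus was higher than the ampulla in each phase, by 1.53 in FP (adjusted p = 0.0007) and 3.36 in LP, but both ampulla means were below the arrays' lower quartile. The interaction was -1.83 (SE 0.22, adjusted p = 0.0154, and 0.0208 with the block).

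The other 6 genes of this pattern had phase effects of -0.87 to -2.30 in the isthmus and -0.38 to 0.27 in the ampulla. SEMA5A, a semaphorin of the kind that guides axons, had an interaction of -2.55 (adjusted p = 0.0462, and 0.104 with the heifer block). SPRY3, of the sprouty family of inhibitors of growth factor signalling, had one of -1.92 (0.0264, and 0.085 with the block). TRIM9, an E3 ubiquitin ligase known from neurons in mice, had one of -1.85 (0.0415, and 0.104 with the block). SLC31A2, a relative of the copper transporters, was 8.63 to 9.19 in FP isthmus and 10.84 to 11.34 in LP isthmus, against 7.81 to 8.13 and 8.09 to 8.48 in FP and LP ampulla, with an interaction of -1.79 (0.0295, and 0.125 with the block). OR6Q1, an olfactory receptor gene, had one of -1.35 (0.0472, and 0.174 with the block), and ARSA, the lysosomal arylsulfatase A, one of -0.77 (0.0349, and 0.129 with the block). All 6 fell in the isthmus in FP, and none passed the phase test in the ampulla.

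**Figure D3:**
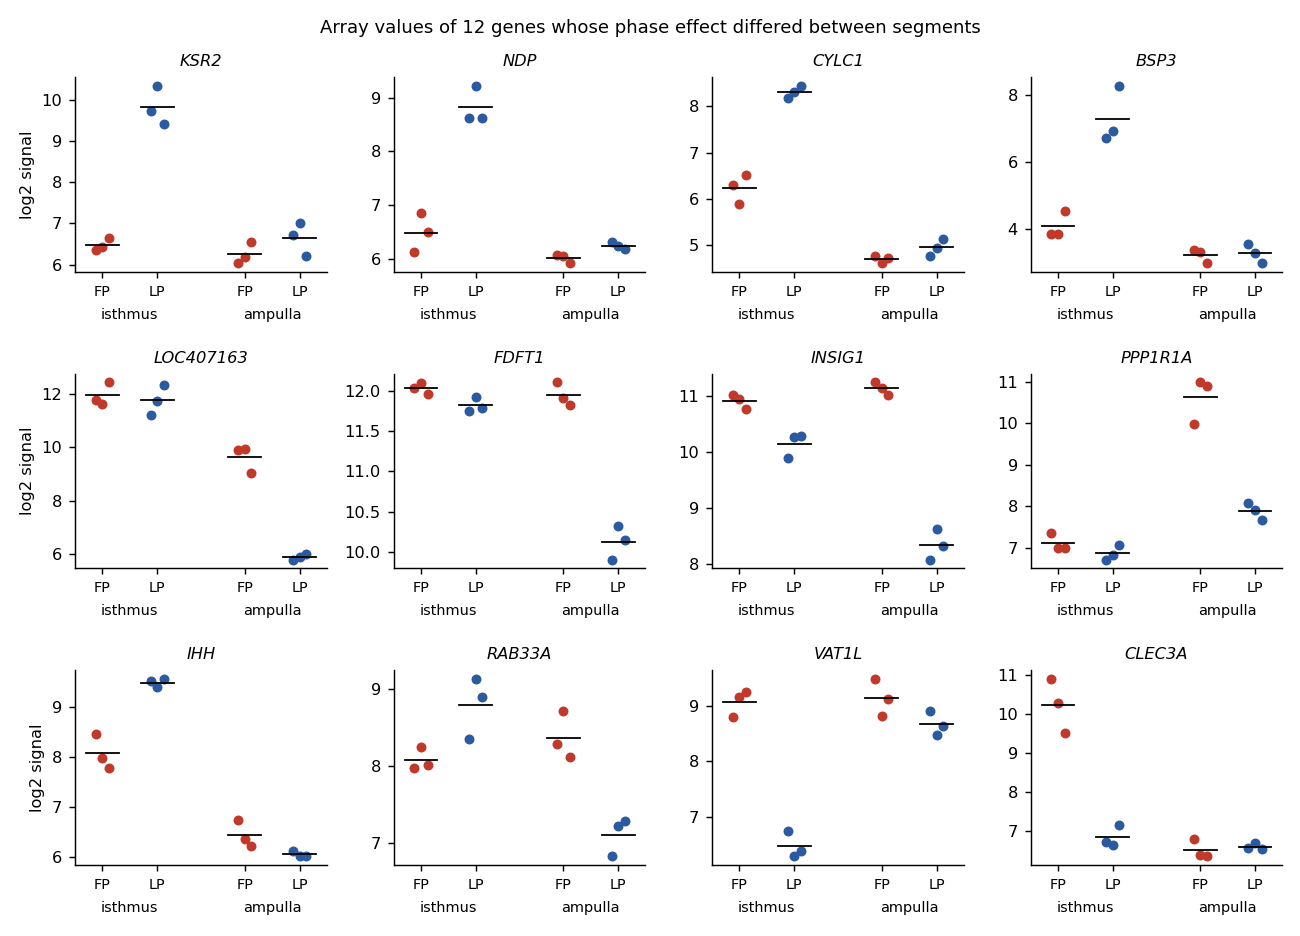
Log2 signal (y axis) of 12 of the 31 genes on each array (points, 3 per group, FP red and LP blue) with the group mean (line), isthmus on the left and ampulla on the right of each panel. KSR2, NDP, CYLC1 and BSP3 stand out in LP isthmus, LOC407163, FDFT1 and INSIG1 are lowest in LP ampulla, PPP1R1A is highest in FP ampulla and CLEC3A is highest in FP isthmus.

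The 8 genes placed under the ampulla only all rose there in FP. The largest was LOC407163, a protein-coding gene with no name in the annotation used. It measured 11.78, 11.64 and 12.43 in FP isthmus and 11.20, 11.74 and 12.35 in LP isthmus, against 9.92, 9.94 and 9.03 in FP ampulla and 5.80, 5.88 and 6.00 in LP ampulla. It was high in the isthmus in both phases and near the lower quartile of the arrays in the LP ampulla. Its phase effect was 0.19 in the isthmus (adjusted p = 0.76) and 3.74 in the ampulla (7.53e-05), and the interaction was -3.55 (SE 0.45, adjusted p = 0.021, and 0.11 with the heifer block).

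The low point of 6 genes of lipid metabolism, 5 enzymes and 1 regulator, was the LP ampulla. FDFT1 encodes squalene synthase, the first enzyme committed to sterols. It measured 12.03, 12.09 and 11.96 in FP isthmus and 11.75, 11.92 and 11.78 in LP isthmus, against 12.10, 11.91 and 11.82 in FP ampulla and 9.91, 10.32 and 10.15 in LP ampulla. The FP arrays of the 2 segments overlapped, and LP ampulla was below all other arrays. The interaction was -1.61 (SE 0.16, adjusted p = 0.0154, and 0.0208 with the block).

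INSIG1, which holds SREBP in the endoplasmic reticulum and is itself a target of SREBP, measured 11.02, 10.94 and 10.77 in FP isthmus and 9.90, 10.26 and 10.29 in LP isthmus, against 11.24, 11.15 and 11.02 in FP ampulla and 8.08, 8.62 and 8.33 in LP ampulla. It rose in both segments, by 0.76 in the isthmus (adjusted p = 0.00653) and 2.80 in the ampulla (5.62e-06). The interaction was -2.04 (SE 0.21, adjusted p = 0.0154, and 0.0109 with the block).

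CYP51A1, the lanosterol demethylase, had phase effects of 0.44 in the isthmus and 1.89 in the ampulla and an interaction of -1.45 (adjusted p = 0.0472, and 0.0931 with the block). FADS2, a desaturase of fatty acids, had phase effects of -0.15 and 1.25 and an interaction of -1.40 (0.0472, and 0.0208 with the block). LPCAT3, which puts unsaturated fatty acids into phospholipids, had phase effects of 0.30 and 1.31 and an interaction of -1.01 (0.0154, and 0.068 with the block). ACSL3, which activates long-chain fatty acids, had phase effects of 0.13 and 1.00 and an interaction of -0.88 (0.0472, and 0.154 with the block). These 4 genes passed the phase test in the ampulla alone. In the isthmus LPCAT3 missed the minimum fold, with an adjusted p of 0.0275.

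The list of cholesterol synthesis and sterol control had 20 of its 28 genes measured by a probeset of 1 symbol. All 20 interactions were 0 or negative, 13 passed an unadjusted p under 0.05 (65.0%, against 6.04% of all genes in that direction), 3 were called, and 7 did not pass even the unadjusted threshold. The median interaction was -0.74, against 0.00 over all genes. In the ampulla 17 members rose in FP and in the isthmus 5, where 5.5% and 5.31% of all genes rose. The median phase effects were 1.18 and 0.46, against -0.02 and -0.01 over all genes. SQLE, the squalene epoxidase, rose by 1.96 in the ampulla and 0.73 in the isthmus, with an interaction of -1.23 (SE 0.23, adjusted p = 0.0816). TM7SF2, a sterol reductase, rose by 1.2 in the ampulla and had a phase effect of -0.02 in the isthmus, with an interaction of -1.21 (SE 0.21, adjusted p = 0.0669). IDI1, which interconverts the isoprene units, had an interaction of -0.91 (SE 0.15, adjusted p = 0.0635). SC5D, INSIG2 and GGPS1 had interactions between -0.11 and 0.00.

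Seen between segments, the mean of the sterol genes was higher in the isthmus in LP and near equal in FP. The mean over the 20 genes of isthmus minus ampulla was -0.20, -0.08 and -0.01 in the FP heifers, against 0.68, 0.67 and 0.70 in the LP heifers. The phases did not overlap. In FP 1 member was called between segments, PMVK, and in LP 10 were called, all higher in the isthmus. Over all genes 2.88% were called in FP and 8.68% in LP, with 4.76% higher in the isthmus in LP. Levels averaged 10.42 to 10.46 on FP isthmus arrays and 9.85 to 10.10 on LP isthmus arrays, against 10.44 to 10.62 on FP ampulla arrays and 9.17 to 9.43 on LP ampulla arrays. The list was chosen with earlier results of these data known, so its count is a description of these genes.

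**Figure D4:**
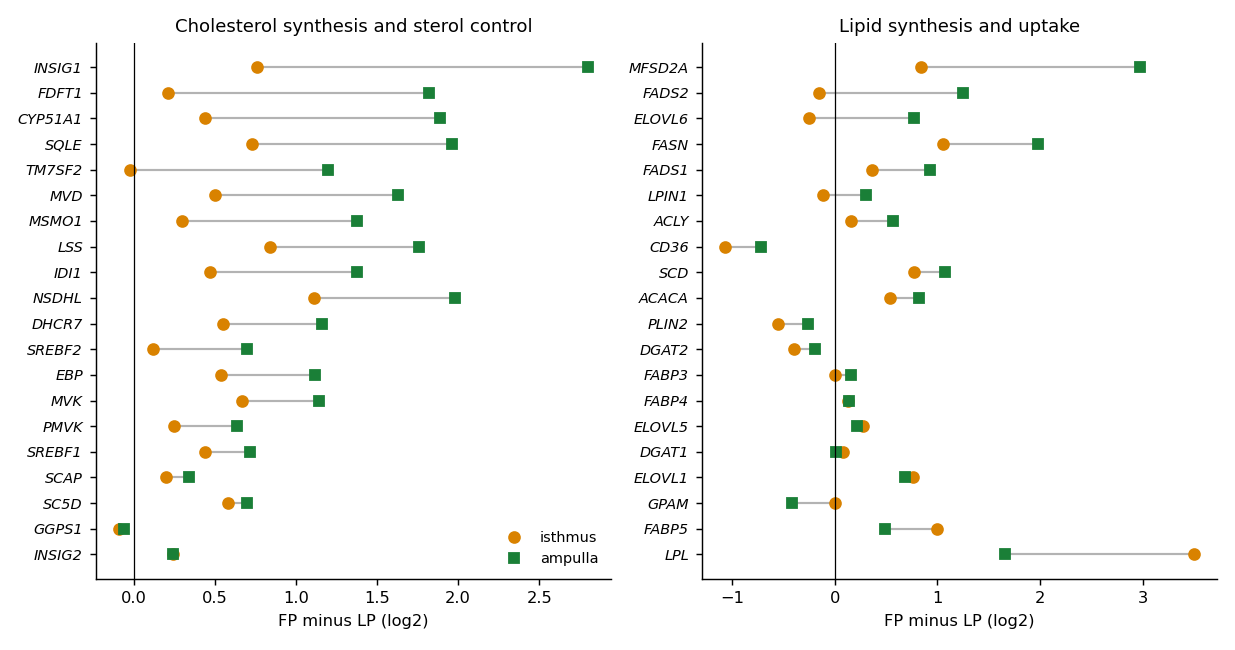
FP minus LP difference (log2, x axis) in the isthmus (circles) and the ampulla (squares) for the 20 measured genes of each list (y axis, ordered by the interaction). The squares lie to the right of the circles for most sterol genes, with INSIG1, FDFT1 and CYP51A1 the farthest apart, and LPL runs the other way among the lipid genes.

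Lipid synthesis and uptake showed a smaller share of the same pattern. Of 20 measured genes 8 had a negative interaction at an unadjusted p under 0.05 (40.0%) and 1 a positive one, with a median of -0.28. Called rises in FP numbered 9 for the ampulla and 5 for the isthmus. Among all genes the shares with a called rise were 5.5% (ampulla) and 5.31% (isthmus). Negative interactions at the unadjusted threshold made up 6.04% of all genes, and positive ones 4.68%. MFSD2A, a transporter of lysophospholipids, measured 10.25, 10.30 and 10.27 in FP isthmus and 9.09, 10.04 and 9.19 in LP isthmus, against 10.49, 10.21 and 9.80 in FP ampulla and 6.92, 7.36 and 7.32 in LP ampulla. It rose in both segments and most in the ampulla, but its interaction of -2.13 missed the threshold (SE 0.35, adjusted p = 0.0539). ELOVL6, an elongase of fatty acids, had phase effects of -0.25 in the isthmus and 0.77 in the ampulla (interaction -1.02, adjusted p = 0.0816), and FASN, the fatty acid synthase, rose by 1.05 in the isthmus and 1.98 in the ampulla (interaction -0.93, adjusted p = 0.113). LPL, the lipoprotein lipase, was the positive one, with rises of 3.50 in the isthmus and 1.66 in the ampulla (interaction 1.84, adjusted p = 0.339). ABCA1, the pump that exports cholesterol from cells and a member of neither list, fell in both segments, by 1.95 in the isthmus and 0.66 in the ampulla, with an interaction of -1.28 (SE 0.21, adjusted p = 0.0483, and 0.122 with the heifer block). It measured 8.16 to 8.56 in FP isthmus and 10.34 to 10.36 in LP isthmus, against 7.36 to 7.73 in FP ampulla and 7.92 to 8.35 in LP ampulla.

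The remaining genes placed under the ampulla only were PPP1R1A and EMID1. PPP1R1A, an inhibitor of protein phosphatase 1, measured 7.35, 6.99 and 7.01 in FP isthmus and 6.72, 6.84 and 7.07 in LP isthmus, against 9.98, 10.98 and 10.90 in FP ampulla and 8.09, 7.91 and 7.68 in LP ampulla. Here the ampulla was the high segment, and the gap widened to -3.50 in FP, against -1.02 in LP (interaction -2.49, SE 0.34, adjusted p = 0.0264, and 0.154 with the heifer block). EMID1 had phase effects of 0.13 in the isthmus and 1.10 in the ampulla (interaction -0.97, adjusted p = 0.0472, and 0.175 with the block).

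Of the 8 genes with effects of opposite sign, 7 had a negative effect in the isthmus and a positive one in the ampulla. The phase test with adjustment and a minimum fold was passed in both segments by RAB33A, SGPP2 and DCLK2. LOC522479, a protein-coding gene with no name in the annotation used, measured 9.14, 9.81 and 8.72 in FP isthmus and 11.10, 12.02 and 11.98 in LP isthmus, against 6.90, 6.4 and 6.11 in FP ampulla and 5.38, 5.78 and 6.05 in LP ampulla. It was far higher in the isthmus in both phases. It fell by 2.48 in the isthmus (adjusted p = 0.000982), while its effect of 0.73 in the ampulla had an adjusted p of 0.167 and an LP mean under the lower quartile of the arrays. The interaction was -3.21 (SE 0.47, adjusted p = 0.0349, and 0.035 with the block).

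RAB33A, a small GTPase of membrane traffic, measured 7.98, 8.25 and 8.01 in FP isthmus and 8.35, 9.13 and 8.89 in LP isthmus, against 8.29, 8.71 and 8.12 in FP ampulla and 6.83, 7.22 and 7.29 in LP ampulla. It fell by 0.71 in the isthmus (adjusted p = 0.0443) and rose by 1.26 in the ampulla (0.00318), so that the segments differed by 1.68 in LP and overlapped in FP (interaction -1.97, SE 0.30, adjusted p = 0.0438, and 0.0208 with the block). SGPP2, a phosphatase of sphingosine-1-phosphate, measured 9.19, 9.21 and 8.97 in FP isthmus and 9.93, 10.95 and 10.56 in LP isthmus, against 7.55, 8.21 and 7.87 in FP ampulla and 6.78, 7.05 and 7.16 in LP ampulla. It stayed higher in the isthmus in FP, by 1.25, against 3.49 in LP (interaction -2.24, SE 0.34, adjusted p = 0.0438, and 0.0657 with the block).

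IHH encodes Indian hedgehog, which in the mouse uterus is induced by progesterone. It measured 8.46, 7.98 and 7.78 in FP isthmus and 9.51, 9.39 and 9.55 in LP isthmus, against 6.73, 6.35 and 6.21 in FP ampulla and 6.12, 6.02 and 6.01 in LP ampulla. It fell by 1.41 in the isthmus (adjusted p = 0.000591), and the effect of 0.38 in the ampulla did not pass after adjustment (0.166). The interaction was -1.79 (SE 0.24, adjusted p = 0.0264, and 0.0109 with the block). CYB5B, a cytochrome b5 of the outer mitochondrial membrane, had phase effects of -0.32 in the isthmus and 0.77 in the ampulla (interaction -1.10, adjusted p = 0.0154, and 0.0745 with the block). SEMA4G, a semaphorin, had effects of -0.66 and 0.31 (interaction -0.97, adjusted p = 0.0349, and 0.122 with the block). SLC25A23, a carrier of the inner mitochondrial membrane, had effects of -0.50 and 0.30 (interaction -0.80, adjusted p = 0.0349, and 0.175 with the block). The ampulla effect of CYB5B and the isthmus effect of SEMA4G passed the phase test, and both effects of SLC25A23 were under 1.5-fold.

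DCLK2, a kinase of the doublecortin family that binds microtubules, ran the other way. It measured 7.15, 7.26 and 7.16 in FP isthmus and 6.77, 6.30 and 6.46 in LP isthmus, against 7.36, 7.16 and 7.06 in FP ampulla and 7.58, 8.08 and 7.91 in LP ampulla. It rose by 0.68 in the isthmus (adjusted p = 0.0112) and fell by 0.66 in the ampulla (0.0129), and the segments overlapped in FP (interaction 1.34, SE 0.21, adjusted p = 0.0472, and 0.2 with the block).

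A further 3 genes passed the phase test in opposite directions without passing the interaction at the adjusted threshold, and all 3 were higher in the isthmus and lower in the ampulla in FP. CEACAM1, a cell adhesion molecule, measured 9.82, 10.03 and 9.16 in FP isthmus and 8.84, 8.01 and 8.50 in LP isthmus, against 8.05, 7.42 and 7.34 in FP ampulla and 8.45, 8.54 and 8.78 in LP ampulla (interaction 2.21, SE 0.38, adjusted p = 0.0712). The segments overlapped in LP and stood apart in FP. MMP7, the metalloproteinase matrilysin, measured 8.81, 9.31 and 9.09 in FP isthmus and 8.40, 6.42 and 8.06 in LP isthmus, against 10.12, 9.95 and 9.45 in FP ampulla and 11.84, 11.25 and 11.15 in LP ampulla (interaction 3.02, SE 0.61, adjusted p = 0.121). Its LP isthmus arrays were widely spread, with heifer 2 the lowest. NID1, a basement membrane protein, was 8.21 to 8.32 in FP isthmus and 7.04 to 7.62 in LP isthmus, against 8.77 to 9.53 in FP ampulla and 9.65 to 10.31 in LP ampulla (interaction 1.60, SE 0.32, adjusted p = 0.109).

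Of the genes called for the interaction, 3 were placed under the isthmus only with a rise in FP. CLEC3A, a C-type lectin known from cartilage, measured 10.90, 10.28 and 9.52 in FP isthmus and 6.72, 6.64 and 7.16 in LP isthmus, against 6.79, 6.38 and 6.36 in FP ampulla and 6.57, 6.70 and 6.54 in LP ampulla. FP isthmus stood apart from all other arrays, and the segment difference of 3.72 in FP (adjusted p = 0.000124) was 0.24 in LP. The interaction was 3.48 (SE 0.40, adjusted p = 0.0154, and 0.0208 with the heifer block). VAT1L measured 8.80, 9.17 and 9.25 in FP isthmus and 6.74, 6.29 and 6.38 in LP isthmus, against 9.49, 8.83 and 9.13 in FP ampulla and 8.91, 8.48 and 8.64 in LP ampulla. It was lowest in LP isthmus, and the segments overlapped in FP (interaction 2.13, SE 0.27, adjusted p = 0.021, and 0.0803 with the block). VAT1L rose by 2.61 in the isthmus, and its ampulla effect of 0.48 was under 1.5-fold (unadjusted p = 0.0328, adjusted p = 0.127). CRYAB, the small heat shock protein alpha-B crystallin, was 10.22 to 10.53 in FP isthmus and 9.12 to 9.25 in LP isthmus, against 10.16 to 10.37 in FP ampulla and 10.18 to 10.68 in LP ampulla (interaction 1.39, SE 0.19, adjusted p = 0.0264, and 0.0683 with the block).

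Leaving out a heifer removed many of the 31 calls, to a degree that depended on the heifer. Of the 31 genes 4, 0 and 2 kept their call without FP heifers 1, 2 and 3, and 24, 3 and 11 kept it without LP heifers 1, 2 and 3. The estimates of the 41 probesets without 1 heifer were 0.80 to 1.2 times those of all heifers. All kept their sign, which was fixed beforehand, since FP and LP heifers did not overlap for any of them. The number of probesets called was 4, 0 and 2 without FP heifers 1, 2 and 3, and 141, 4 and 20 without LP heifers 1, 2 and 3. No gene was called in all 6 of these fits. CLEC3A was called in 4, KSR2, FDFT1 and INSIG1 in 3, and SEMA5A, OR6Q1, ARSA, FADS2 and EMID1 in 0. The share of negative calls also moved, with 69 negative and 72 positive calls without LP heifer 1. Without FP heifer 2, where none passed, the lowest adjusted p among the 41 probesets was 0.121.

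The remaining gene lists were described by how many of their members had an interaction at an unadjusted p under 0.05, set against 6.04% negative and 4.68% positive over all genes. Most genes of folding in the endoplasmic reticulum rose in both segments, where 5.31% of all genes in the isthmus and 5.5% in the ampulla did. Of 25 genes of endoplasmic reticulum folding 22 rose in the isthmus and 23 in the ampulla, and 5 had a negative interaction (20.0%). FKBP11, a folding catalyst of the secretory pathway, rose by 1.85 in the isthmus and 2.43 in the ampulla (interaction -0.58, SE 0.14, adjusted p = 0.191). EDEM1, which marks misfolded glycoproteins for degradation, rose by 1.46 and 2.06 (interaction -0.60, adjusted p = 0.259). Of 24 genes of the translocon and oligosaccharyltransferase 14 rose in the isthmus and 15 in the ampulla, and 3 had a negative interaction (12.5%). Of 25 genes of vesicle traffic 6 rose in the isthmus and 12 in the ampulla, 5 had a negative interaction (20.0%), and COPZ1, a subunit of the COPI coat, had one of -0.55 (SE 0.11, adjusted p = 0.127). SEC11C, a subunit of signal peptidase, rose by 0.69 in the isthmus and 1.71 in the ampulla (interaction -1.02, SE 0.24, adjusted p = 0.176).

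Mitosis genes rose in more members in the ampulla than in the isthmus, where 5.5% and 5.31% of all genes rose. Of 23 mitosis genes 11 rose in the isthmus and 18 in the ampulla, with a median interaction of -0.30, and 3 passed at the unadjusted threshold (13.0%). AURKB, a mitotic kinase, had phase effects of 0.41 in the isthmus and 1.14 in the ampulla (interaction -0.74, SE 0.28, adjusted p = 0.413). CCNB1, the B-type cyclin, was higher in the isthmus in both phases, by 3.64 in FP and 4.72 in LP, whereas the median of the list was -0.71 in FP and -0.35 in LP. Of 25 DNA replication genes 11 rose in the isthmus and 13 in the ampulla, with a median interaction of -0.09. Only 2 of them had a negative interaction at the unadjusted threshold (8%), near the 6.04% of all genes. The smallest p was that of GINS1, a subunit of the replicative helicase, with an interaction of -0.77 (SE 0.18, adjusted p = 0.175). CDK6, a kinase of the early cycle, fell by 0.87 in the ampulla and had an effect of -0.05 in the isthmus (interaction 0.82, SE 0.16, adjusted p = 0.107).

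The 2 lists of cilium genes differed. The 23 genes of ciliated cell formation had median segment differences of -0.19 in FP and -0.10 in LP, with 12 negative and 11 positive interactions. Of 27 motile cilium genes 24 had a positive interaction, against 9110 of all 18010 genes, and 4 passed the unadjusted threshold (14.8%). Their median segment difference was -0.14 in FP and -0.33 in LP. RSPH1, a radial spoke protein, differed by -0.20 in FP and -0.64 in LP (interaction 0.44, SE 0.14, adjusted p = 0.332), and IFT57, of intraflagellar transport, by -0.19 and -0.70 (interaction 0.51, SE 0.15, adjusted p = 0.283). FOXJ1, the transcription factor that drives motile cilia and a member of the formation list, differed by -0.13 and -0.39 (interaction 0.26, adjusted p = 0.486). The mean of isthmus minus ampulla over the motile cilium list was -0.14, -0.05 and -0.15 in the FP heifers, against -0.35, -0.41 and -0.17 in the LP heifers. CDC20B, of the formation list and active in cells that are making cilia, rose by 2.81 in the isthmus and 4.44 in the ampulla (interaction -1.63, SE 0.64, adjusted p = 0.437).

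Markers of T and NK cells and of macrophages and dendritic cells had negative median phase effects in both segments. More of them were called in the ampulla than in the isthmus. Over all genes 3.64% fell in the ampulla and 4.59% in the isthmus. Whether the segments differed in this was tested only gene by gene. Of 19 T and NK cell markers 2 fell in the isthmus and 7 in the ampulla, with median phase effects of -0.95 and -1.2. Their median segment difference was -0.06 in FP and -0.39 in LP. Of 15 macrophage and dendritic cell markers 4 fell in the isthmus and 9 in the ampulla, with median phase effects of -0.47 and -0.72. Their median segment difference was 0.03 in FP and -0.22 in LP. The 10 measured B and plasma cell markers did not share this. Their median phase effects were 0.02 in the isthmus and -0.11 in the ampulla, and 0 were called in either segment. The interaction passed at the unadjusted threshold for GZMB, a granule protease of cytotoxic cells, with 0.43 (adjusted p = 0.489), and for no other gene of these lists. Of 39 genes of complement, Toll-like receptors and chemokines 31 had a positive interaction, against 9110 of all 18010 genes. Of the 39, 2 passed the unadjusted threshold (5.13%), near the 4.68% of all genes. These were TLR5, the flagellin receptor (1.47, adjusted p = 0.28), and CCL28, a mucosal chemokine (1.41, adjusted p = 0.337). Interferon-stimulated genes fell in 6 of 19 members in the isthmus and 3 in the ampulla, with 1 interaction at the unadjusted threshold. Of 28 respiratory chain genes 0 passed that threshold, and 2 rose in the isthmus and 3 in the ampulla. Over all genes 5.31% rose in the isthmus and 5.5% in the ampulla.

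Lists of signalling genes held single members with large differences between segments. Of 38 hedgehog and WNT genes 8 fell in the isthmus and 5 in the ampulla, where 4.59% and 3.64% of all genes fell. Beside NDP and IHH the hedgehog transducer SMO fell by 0.61 in the ampulla and had an effect of 0.09 in the isthmus (interaction 0.70, SE 0.15, adjusted p = 0.138). Of 33 BMP and TGF-beta genes 5 had a positive interaction (15.2%) and 2 a negative one. FST, the activin binding protein follistatin, fell by 1.79 in the ampulla (interaction 1.51, SE 0.32, adjusted p = 0.133), and BAMBI, a decoy receptor, fell by 1.56 in the isthmus (interaction -1.13, SE 0.25, adjusted p = 0.151). Of 28 FGF and MAP kinase feedback genes 8 fell in the isthmus and 3 in the ampulla, and beside KSR2 the phosphatases DUSP6 and DUSP5 had interactions of -1.04 and -0.78 (adjusted p = 0.13 and 0.258). HOXB8 and HOXA2 fell by 1.09 and 1.30 in the isthmus, with interactions of -1.23 and -1.05 (adjusted p = 0.192 and 0.222).

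Proteases, prostaglandin enzymes and transporters showed the same mix. SERPINB12, a clade B serpin, measured 6.28, 6.30 and 7.14 in FP isthmus and 10.74, 11.79 and 12.18 in LP isthmus, against 4.78, 4.67 and 5.22 in FP ampulla and 5.21, 6.62 and 6.57 in LP ampulla. It fell by 5.0 in the isthmus, and its interaction of -3.76 missed the threshold (SE 0.62, adjusted p = 0.0583). The FP ampulla values of SERPINB12 were below the lower quartiles of the arrays, so the size of its interaction is uncertain. AKR1B1, which in cattle can act as a prostaglandin F synthase, measured 10.06, 10.08 and 10.13 in FP isthmus and 11.24, 11.69 and 11.60 in LP isthmus, against 6.86, 7.27 and 7.54 in FP ampulla and 6.57, 6.96 and 7.23 in LP ampulla. It was higher in the isthmus in each phase, by 2.87 in FP and 4.59 in LP (interaction -1.72, SE 0.28, adjusted p = 0.0539). PTGS2, the inducible cyclooxygenase, had phase effects of -0.47 in the isthmus and 0.33 in the ampulla (interaction -0.80, SE 0.24, adjusted p = 0.293).

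Genes of fluid, receptors and secretion changed in either segment. GABRP, a subunit of GABA receptors of epithelia, measured 5.02, 5.13 and 5.08 in FP isthmus and 5.47, 5.66 and 6.26 in LP isthmus, against 5.87, 6.79 and 5.86 in FP ampulla and 9.38, 8.67 and 9.23 in LP ampulla. LP ampulla stood apart, and the interaction was 2.20 (SE 0.40, adjusted p = 0.0816). Its FP isthmus values were below the lower quartiles of the arrays and its LP isthmus values near them, so the size of the interaction is uncertain. SCNN1G, a subunit of the epithelial sodium channel, fell by 1.45 in the ampulla (interaction 1.58, SE 0.31, adjusted p = 0.103), whereas SCNN1A, another subunit, had effects of -0.28 in the isthmus and 0.47 in the ampulla (interaction -0.75, SE 0.16, adjusted p = 0.133). Of 29 glycosyltransferases 6 had a positive (20.7%) and 5 a negative (17.2%) interaction, and the sialyltransferase ST3GAL1 rose by 2.21 in the isthmus and had an effect of 0.26 in the ampulla (interaction 1.95, SE 0.39, adjusted p = 0.108). TFF3, a trefoil peptide of mucosal secretions, fell by 2.41 in the isthmus (interaction -1.60, SE 0.40, adjusted p = 0.205), and CHI3L1, a secreted chitinase-like protein, rose there by 3.13 (interaction 2.63, SE 0.78, adjusted p = 0.296).

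**Figure D5:**
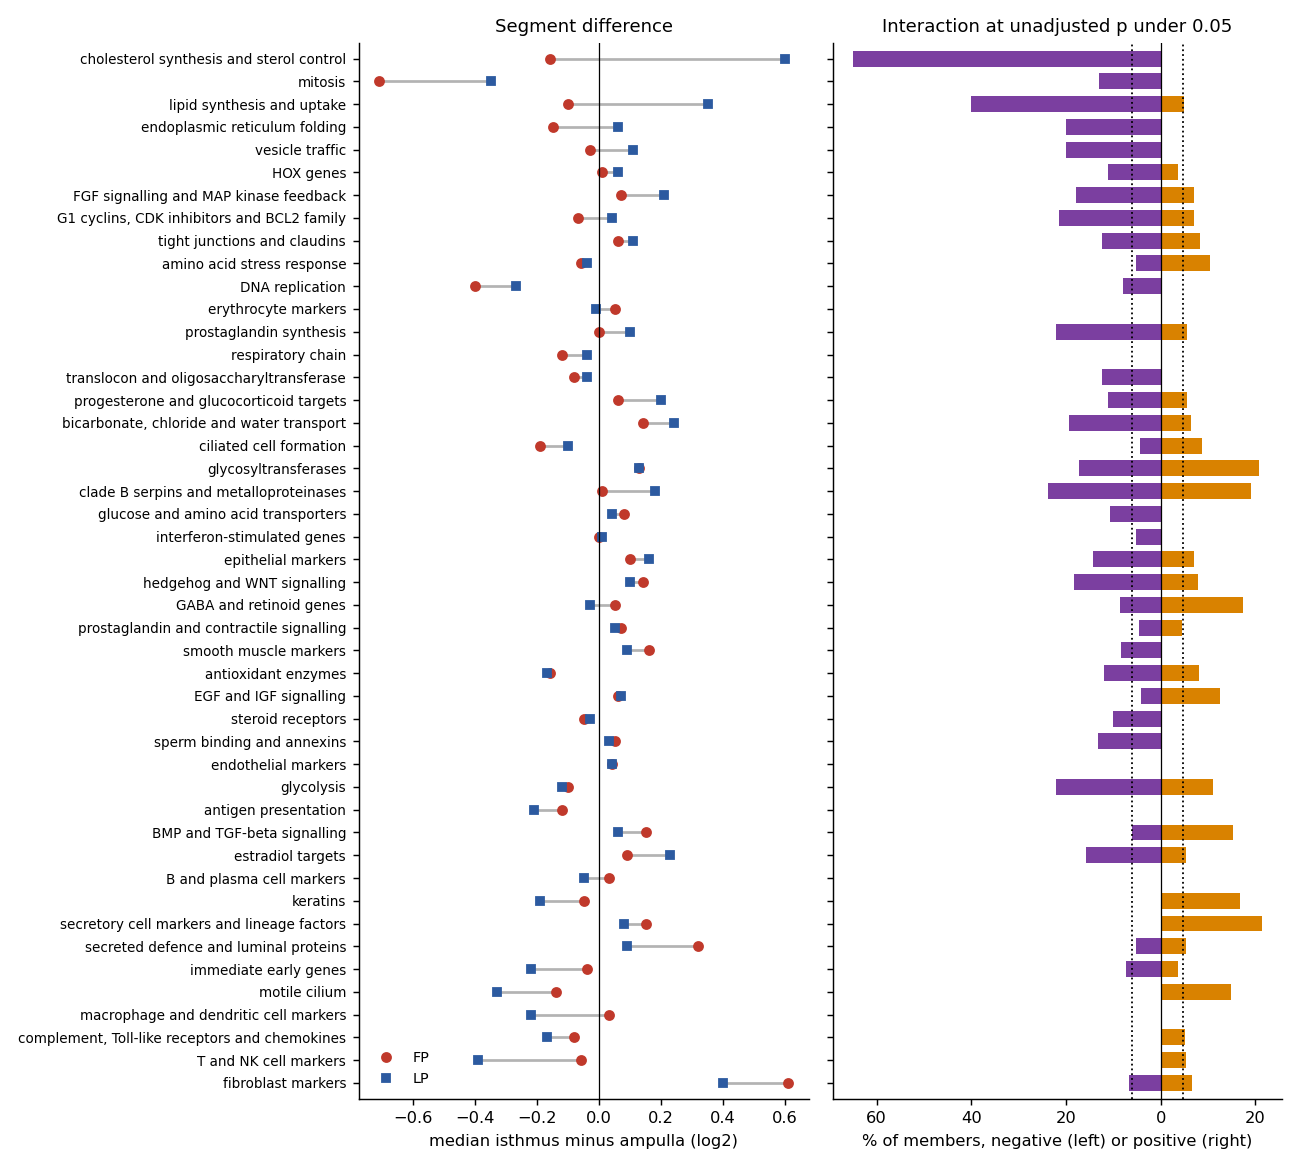
Left, median isthmus minus ampulla difference (log2, x axis) in FP (circles) and LP (squares) over the measured members of each gene list (y axis, ordered by the median interaction). Right, percent of members with a negative or positive interaction at an unadjusted p under 0.05, with dotted lines at the shares over all genes (6.04% and 4.68%). Cholesterol synthesis has the largest share, 65.0% negative, followed by lipid synthesis with 40.0%.

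Of the genes with the 5 largest segment differences of each phase and direction, LOC522479, LOC407163 and PPP1R1A were called for the interaction and are described above, and the others were not. GRP, the gastrin-releasing peptide, measured 13.78, 13.86 and 13.54 in FP isthmus and 13.38, 13.96 and 13.41 in LP isthmus, against 7.31, 7.10 and 7.16 in FP ampulla and 7.5, 6.94 and 7.43 in LP ampulla. The segments differed by 6.54 in FP and 6.29 in LP, with an interaction of 0.25 (SE 0.26, adjusted p = 0.831). NETO1, an auxiliary subunit of glutamate receptors in neurons, differed by 6.13 in FP and 6.10 in LP, and LOC282340, whose synonyms include RNASE1, by 5.10 and 5.69. GPM6B and IGFBP3, a carrier of insulin-like growth factors, were higher in the isthmus by 4.76 and 4.67 in FP and by 5.12 and 3.41 in LP. On the ampulla side, the urothelial protein UPK1B differed by -4.21 in FP and -4.59 in LP, and PLEKHG7 by -3.56 and -3.85. GATA6, a transcription factor, differed by -3.22 in FP and -3.55 in LP. None of these 8 genes passed the interaction, the lowest adjusted p being 0.332 for IGFBP3. Both ampulla means of NETO1, LOC282340 and GPM6B, and the LP isthmus mean of UPK1B, were at or under the highest lower quartile of the arrays. The sizes of those gaps, and how alike they were in the phases, are uncertain.

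The remaining genes of that selection, all higher in the ampulla, had fitted gaps that were larger in 1 phase, without a call for the interaction. CBLN4, a secreted protein of the cerebellin family, differed by -3.46 in FP and -1.56 in LP (interaction -1.90, adjusted p = 0.196). PTGDS, a prostaglandin D synthase, differed by -2.99 in FP and -4.16 in LP (interaction 1.17, adjusted p = 0.539). HPGD, which degrades prostaglandins, differed by -2.43 and -3.86 (interaction 1.44, adjusted p = 0.484), but both its isthmus means were under the arrays' lower quartile. FMO2, a flavin monooxygenase, differed by -2.34 in FP (adjusted p = 0.0952) and -3.93 in LP (interaction 1.59, adjusted p = 0.649).

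Among the genes chosen for RT-PCR, BSP3 alone was called for the interaction on the arrays. NTS, the peptide neurotensin, rose by 4.67 in the isthmus and 5.35 in the ampulla (interaction -0.68, SE 0.73, adjusted p = 0.834). EGR1, an immediate early transcription factor, fell by 2.58 and 3.33 (interaction 0.75, SE 1.12, adjusted p = 0.893). CCND2, cyclin D2, rose by 1.32 in the isthmus and had an effect of 0.31 in the ampulla (interaction 1.01, SE 0.39, adjusted p = 0.434). The probeset named LDHA, a lactate dehydrogenase, measured 6.58 to 7.17 in FP isthmus and 5.39 to 6.6 in LP isthmus, against 6.59 to 7.06 in FP ampulla and 6.76 to 7.10 in LP ampulla. Its effects were 0.93 in the isthmus and -0.16 in the ampulla, with an interaction that was not called (1.09, SE 0.38, adjusted p = 0.371). All its arrays were below the median signal, and probesets without a symbol could hold other parts of this gene, so these values are those of the probeset and not of the gene as a whole. HSD17B7, which acts in sterol and estrogen synthesis, had effects of -0.20 and 0.03 (interaction -0.22, SE 0.20, adjusted p = 0.796).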

How the data were processed

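RNA of 12 epithelial cell samples was hybridised to Bovine Gene 1.0 ST arrays. The authors summarised probes by RMA (background correction, quantile normalization, median polish) in Partek, and the deposited values are log2 signals. The submitters' notes name GCOS 1.2 and Partek 6.4. The genome build of the probesets was not given in the sources used here.

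From these values, limma 3.58.1 in R 4.3.3 fitted 4 group means to 26773 probesets, without a filter, and gave the interaction, the 2 phase effects and the 2 segment differences. P-values were adjusted by Benjamini-Hochberg over all probesets. The interaction was called at an adjusted p under 0.05 and the others also required 1.5-fold. Of the probesets, 18457 had 1 symbol, 688 several and 7628 none. A gene with several probesets (401 of 18010) was read on the one with the highest mean. P-values of the limma fit rest on the spread between arrays within the 4 groups, and on these heifers only. The fit took the 2 arrays of a heifer as independent. Of the 1065 entries of 46 gene lists 990 were measured. The distance test was an exact permutation over heifers (scipy 1.17.1, Python 3.11.15).

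The labels give same-numbered isthmus and ampulla arrays of a phase to the same heifer. Their deviations from the group means correlated at 0.26, 0.22 and 0.37 in LP and at -0.05, -0.17 and -0.10 in FP. The fit with heifer as a block is therefore given beside each call that it changed. Other alternatives were a random block, a filter on low signal, trend and robust moderation, centring, array weights, each heifer left out, and the F-test with LSD contrasts that the methods name.

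Genes named are those called for the interaction, those called in opposite directions, up to 3 members of each gene list with the smallest interaction p, the largest segment differences, and the genes of the RT-PCR table. FASN, LPL, SQLE, TM7SF2, IDI1, PMVK, SC5D, INSIG2 and GGPS1 were added after their values were seen. The members and lists were chosen with earlier results of these data known. The calculation was tested on simulated data.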

Additional observations from a re-analysis of the deposited data

Results flagged for a closer look

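For 31 genes the phase effect differed between the isthmus and the ampulla by the interaction test at an adjusted p under 0.05. Values are FP minus LP in the isthmus, less the same difference in the ampulla, in log2 units.

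Among genes placed under the isthmus only, the interaction was -3.16 for BSP3, -2.95 for KSR2, -2.55 for SEMA5A, -2.11 for NDP and -1.92 for SPRY3. It was -1.85 for TRIM9, -1.83 for CYLC1, -1.79 for SLC31A2, -1.35 for OR6Q1 and -0.77 for ARSA. It was positive for CLEC3A with 3.48, VAT1L with 2.13 and CRYAB with 1.39.

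Among genes placed under the ampulla only, it was -3.55 for LOC407163, -2.49 for PPP1R1A, -1.61 for FDFT1 and -1.45 for CYP51A1. It was -1.40 for FADS2, -1.01 for LPCAT3, -0.97 for EMID1 and -0.88 for ACSL3. INSIG1, with -2.04, and ABCA1, with -1.28, changed the same way in both segments.

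Among genes with opposite signs, it was -3.21 for LOC522479, -2.24 for SGPP2, -1.97 for RAB33A and -1.79 for IHH. It was -1.10 for CYB5B, -0.97 for SEMA4G, -0.80 for SLC25A23 and 1.34 for DCLK2.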

How the results depend on the processing

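The direction of all 31 genes held in every setting that measured them, but most settings could not change it. The blocks, LSD contrasts, trend and robust moderation, and the filter keep the same estimate. With 1 heifer left out the sign is fixed, since the heifers of the 2 phases did not overlap for these genes. The interaction was called for 41 probesets, and for 1831 with an F-test followed by LSD contrasts. There only the F-test over the 4 groups was adjusted, and the contrast itself passed at an unadjusted p under 0.05. That count, and those of segment differences with LSD contrasts, are thus not at a like threshold. The interaction was called for 72 with trend and robust moderation, and for 0 to 141 with a heifer left out. With heifer as a replicate block it was called for 19 probesets, of which 13 were among the 41, and 9 of the 31 genes kept their call. The block moved neither count of segment differences by over 1.5 times. It gives no phase effects, since each heifer belongs to 1 phase. The segment difference was called for 629 probesets in FP, for 1013 with LSD contrasts, 965 with array weights and 113 to 615 with a heifer left out. In LP it was called for 1871 probesets and for 1067 to 1784 with a heifer left out. Beyond the threshold of the LSD contrasts, the causes of these changes were not tested. Without 1 heifer a phase holds 2, which leaves fewer degrees of freedom. The other settings kept 30 or 31 of the 31 calls. ACSL3 had an adjusted p of 0.0531 after centring and FADS2 one of 0.0714 with array weights, and BSP3 was removed by the filter on low signal. The difference in distance between segments, -0.097 in FP minus LP, ran between -0.129 and -0.050. With 3 heifers a phase, no exact test could reach a p under 0.05, and differences of signals near the arrays' lower quartile are uncertain in size.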

Other observations

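In FP, the deviations from the group means correlated most between arrays of different heifers, at 0.16 for isthmus 1 with ampulla 3, 0.24 for isthmus 2 with ampulla 1 and 0.24 for isthmus 3 with ampulla 2. In LP each isthmus array correlated most with the ampulla array of its own heifer. The FP distances per heifer and the p-values with the heifer block rest on the heifer numbers as labelled, and other numbers for the FP heifers were not tried. The distance over all pairs of arrays of a phase does not use the numbers.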
